A study of Mus musculus with 10 samples.

Results

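The genes described are fibronectin and 9 matricellular genes: Fn1, Tnc, Thbs1, Thbs2, Thbs3, Thbs4, Postn, Spp1, Sparc and Sparcl1. They were taken from the deposited expression table by symbol, and each of the 10 had 1 row of its own among 27968 rows. All 10 were among the 16681 rows with a valid test. The tissue was tumour, grown subcutaneously in immune-compromised mice from implanted C57BL/6 embryonic fibroblasts (MEFs) that carried RAS, G12V by the name of the deposited table, and DNP53, a dominant-negative p53. In 3 tumours (line 12 once and line 14 in 2 tumours) cyclin D1 carried a tag, and 2 tumours (lines 18 and 25) carried no tag and were labelled WT, which refers to cyclin D1. Every animal received HA-siRNA rectally, so untreated tumours are not among the samples. Host and implanted cells are both of mouse origin, and reads do not tell them apart. The sources used here give no age, sex or strain of the hosts.

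The deposited table holds a single value for each of 2 conditions, C2 and C1, and neither it nor the labels say which condition is tagged. All differences are therefore given as the log2 ratio of C2 over C1. Values are given as FPKM (fragments per kilobase of transcript, scaled to total fragments), a scale per length on which levels of different genes can be compared. A gene is called where the q-value of the authors' deposited table, from Cuffdiff, is under 0.05. Since single tumours have no values, neither an SD nor an n can be given, and library depth is unknown.

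Fibronectin is a large secreted glycoprotein that cells assemble into fibres through integrins, and these fibres serve as a scaffold for collagen and growth factors. Matricellular proteins are secreted into the same matrix but act mainly as signals: they bind integrins and other receptors, growth factors and proteases, and change how firmly cells hold on. They are sparse in most resting adult tissue and abundant in healing wounds, developing skeleton and the stroma of tumours.

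All 10 genes had lower values in C2, and 6 of them fell: Thbs1, Thbs2, Thbs3, Thbs4, Postn and Sparc. None (0) was called higher. Over all tested rows 2.92% were called lower and 4.2% higher, so 6 of 10 lay above the background share. The same shares are the background for the lists below. The genes and lists were chosen with earlier results of these data known, so an excess over these shares is not independent of that choice. At an unadjusted p under 0.05 the same 6 genes passed and no other. The median log2 ratio of the 10 genes was -1.31, against 0.05 over all tested rows, and the ratios ran from -1.99 for Thbs4 to -0.33 for Sparcl1. Summed over the 10 genes, the level was 5607 FPKM in C2 and 15315 FPKM in C1, or 1.03% of the sum of named rows in C2 and 2.76% in C1. In bulk tumours, fewer cells of a type and less RNA per cell cannot be told apart.

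**Figure D1:**
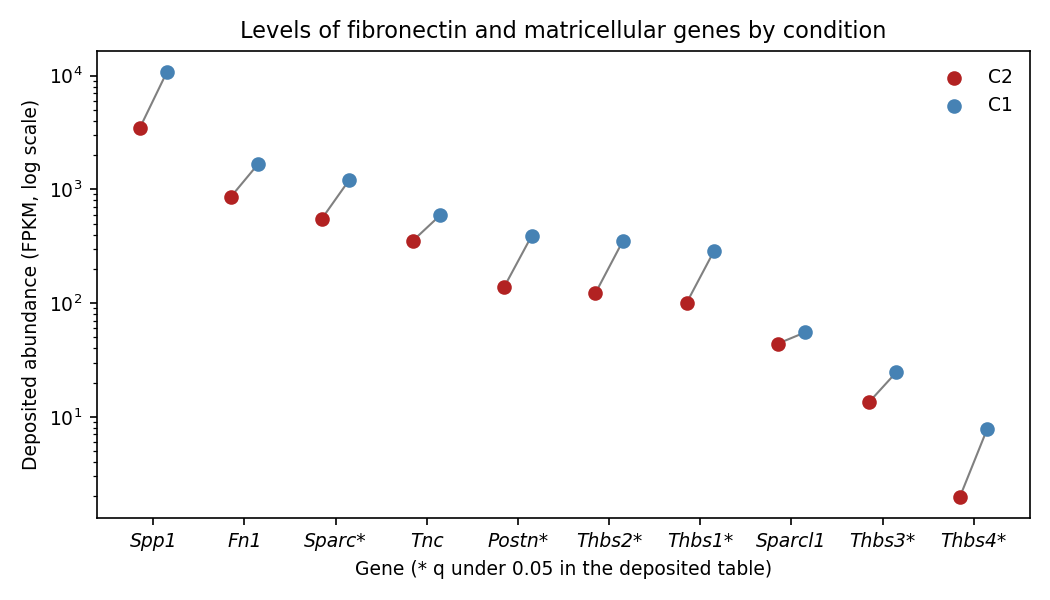
Deposited abundance in FPKM (log scale) of the 10 genes, with C2 (red) left of C1 (blue) and a grey line joining the 2 values of a gene. The C2 value lies below the C1 value for all 10 genes, and the asterisks mark the 6 with q under 0.05.

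The order of the levels was the same in C2 and C1: Spp1, Fn1, Sparc, Tnc, Postn, Thbs2, Thbs1, Sparcl1, Thbs3, Thbs4. With 1 value per condition it cannot be said which neighbours in that order differ beyond their spread. Spp1 alone made up 61.1% of the summed level in C2 and 70.1% in C1. Without it the sum was 2182 FPKM in C2 and 4577 FPKM in C1. Ranked among 13626 named rows with a valid test, Spp1 was 8th in C2 and 3rd in C1, and Fn1 was 60th in C2 and 23rd in C1. At the other end, Thbs4 ranked 11627th in C2 and 7835th in C1.

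Promoter sequence is shown for the 3 called genes with the lowest ratios in RefSeq's promoter table (GRCm38.p6), Thbs2, Thbs4 and Postn. It is also shown for the most abundant gene, Spp1, which was not called. Each had a lower value in C2 than in C1, and shared regulation was not tested. The table held windows for 7 of the 10 genes. Each line gives the 250 bases before the annotated start, 5′ to 3′ on the gene's strand. The windows are Thbs2 at chr17:14694263-14694512 (minus strand), Thbs4 at chr13:92794819-92795068 (minus strand), Postn at chr3:54360857-54361106 (plus strand) and Spp1 at chr5:104434861-104435110 (plus strand). Capitals mark matches to 5 motifs on either strand, none of which overlapped. The motifs searched were the TATA box as TATAAA, the CCAAT box by that run of letters, the AP-1 site as TGANTCA, the GC box as GGGCGG and the core of the Runx site as ACCACA.
Thbs2: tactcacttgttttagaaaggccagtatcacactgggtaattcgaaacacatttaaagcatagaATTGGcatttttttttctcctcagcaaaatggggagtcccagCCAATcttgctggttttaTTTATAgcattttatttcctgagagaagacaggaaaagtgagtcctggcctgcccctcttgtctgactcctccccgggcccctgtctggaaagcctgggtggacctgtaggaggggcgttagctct
Thbs4: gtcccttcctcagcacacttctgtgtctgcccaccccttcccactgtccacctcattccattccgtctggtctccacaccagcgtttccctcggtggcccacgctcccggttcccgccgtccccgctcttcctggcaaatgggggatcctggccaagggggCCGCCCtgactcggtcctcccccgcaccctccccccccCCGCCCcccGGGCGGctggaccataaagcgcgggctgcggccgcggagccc
Postn: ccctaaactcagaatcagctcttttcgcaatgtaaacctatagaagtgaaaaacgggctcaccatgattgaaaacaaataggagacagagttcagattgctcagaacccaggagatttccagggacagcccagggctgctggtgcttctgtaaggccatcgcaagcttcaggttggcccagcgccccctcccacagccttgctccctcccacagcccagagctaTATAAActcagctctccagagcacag
Spp1: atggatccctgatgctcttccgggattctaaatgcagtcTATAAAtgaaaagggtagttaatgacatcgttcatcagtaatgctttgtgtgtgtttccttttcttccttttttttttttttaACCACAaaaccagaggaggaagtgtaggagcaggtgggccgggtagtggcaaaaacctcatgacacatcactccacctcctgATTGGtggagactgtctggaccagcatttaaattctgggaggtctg

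No motif was found in all of the windows. TATAAA was found in 4 of the 7 windows (Tnc, Thbs2, Postn and Spp1), against 12.4% of 32817 RefSeq windows of that length. In Postn the match begins at -26 from the start, in Thbs2 and Tnc at -126 and in Spp1 at -211. CCAAT was found in 3 of the 7 (Thbs2, Thbs3 and Spp1), against 33.8% of all windows. GGGCGG was in 3 (Tnc, Thbs3 and Thbs4, with 3 matches in Thbs4), against 32.7%. ACCACA was in Spp1, at -128, against 14.0%, and TGANTCA was in none of the 7 (0), against 6.75%. The GC content of the windows shown ran from 43.6% for Spp1 to 70.8% for Thbs4, with a median of 52.4% over all windows. A match is a run of letters and not a measured site.

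Fn1 encodes fibronectin itself. It stood at 856 FPKM in C2 and 1665 FPKM in C1 (XLOC_000834, chromosome 1, 71631988 to 71699808, MGSCv37). The C2 value was 51.4% of the C1 value, a log2 ratio of -0.96, and the difference was not called (p = 0.1595, q = 0.541, the authors' deposited table). Tnc, tenascin-C, is a matrix glycoprotein of wounds and tumour stroma that weakens the attachment of cells to fibronectin. Its values were 354 FPKM in C2 and 594 FPKM in C1, a log2 ratio of -0.75 (p = 0.05955, q = 0.323, the authors' deposited table), and it was not called either. The table sums the spliced forms of both genes, so inclusion of their alternative fibronectin type III repeats was not measured.

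Thrombospondins are oligomeric calcium-binding glycoproteins: Thbs1 and Thbs2 form trimers that inhibit the growth of blood vessels, and Thbs3 and Thbs4 belong to the pentameric subgroup. All 4 fell. Thbs1 (XLOC_013412, chromosome 2, 117937633 to 117952871) had 100.1 FPKM in C2 and 285 FPKM in C1. Its log2 ratio was -1.51 (q = 0.00167, the authors' deposited table). Thbs2 (XLOC_010527, chromosome 17, 14802506 to 14831269) had 122 FPKM in C2 and 349 FPKM in C1, a log2 ratio of -1.52 with the same q in the authors' deposited table. These 2 close paralogues thus kept their proportion, with 0.821 FPKM of Thbs1 per FPKM of Thbs2 in C2 and 0.817 in C1. Thbs4 (XLOC_006611, chromosome 13, 93521540 to 93564773) is known from tendon and muscle and had the lowest ratio of the 10 genes. It stood at 1.99 FPKM in C2 and 7.89 FPKM in C1, a log2 ratio of -1.99 (q = 0.00167, the authors' deposited table), or -1.57 with a pseudocount of 1. Thbs3 (XLOC_015416, chromosome 3, 89019108 to 89030759) fell least of the 4, with 13.4 FPKM in C2 and 24.6 FPKM in C1 (log2 ratio -0.88, q = 0.0431, the authors' deposited table). Thbs3 was not called at q under 0.01 (1.57% of tested rows called lower) or with a 2-fold minimum (2.54%).

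The remaining thrombospondin had the opposite direction. Comp, the cartilage oligomeric matrix protein and also pentameric, rose, with 12.6 FPKM in C2 and 0.233 FPKM in C1. Its log2 ratio was 5.75 (q = 0.00167, the authors' deposited table), or 3.46 with a pseudocount of 1. Tendon and cartilage markers were not uniform: of 6 with a valid test 3 were called higher and none (0) lower, nor was any lower at an unadjusted p under 0.05. Col9a1, Sox9 and Acan had log2 ratios of 6.64, 1.09 and 2.64, and the summed level of the 8 markers found was 89.8 FPKM in C2 and 45.1 FPKM in C1. Without Col9a1 the other 7 summed to 42.4 FPKM in C2 and 44.6 FPKM in C1. By value, 4 of the 6 tested markers were higher in C2 and 2 lower, the lower ones without a call. The tendon factor Scx was at 13.7 FPKM in C2 and 31.6 FPKM in C1 (q = 0.601, the authors' deposited table). The part of cartilage genes in the Comp value was not tested.

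Postn encodes periostin, a fasciclin-domain protein that binds collagen and integrins and marks activated fibroblasts and periosteum. It fell to 139 FPKM in C2, against 388 FPKM in C1 (XLOC_015302, chromosome 3, 54165028 to 54194963). Its log2 ratio was -1.48 (q = 0.00167, the authors' deposited table). Tgfbi, the other fasciclin-domain gene measured, had 140 FPKM in C2 and 209 FPKM in C1, a log2 ratio of -0.58, and was not called (q = 0.222, the authors' deposited table).

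Spp1 encodes osteopontin, a phosphorylated glycoprotein of bone, macrophages and many carcinomas that binds integrins and CD44. It had 3424 FPKM in C2 and 10738 FPKM in C1 (XLOC_018641, chromosome 5, 104864129 to 104870072). The C2 value was 31.9% of the C1 value, a log2 ratio of -1.65, yet the difference was not called (p = 0.1643, q = 0.547, the authors' deposited table). Its ratio was further from 0 than those of Thbs1, Thbs2, Postn and Sparc, which were called. The test statistic that the authors deposited was -0.72 for Spp1 and -2.28 for Thbs2. Of the most abundant tested rows, with a mean of at least 500 FPKM, 2.17% were called lower, against 2.92% of all tested rows. In all, 11 named single-gene rows had a mean of at least 100 FPKM and a log2 ratio from -1.8 to -1.5. Of these 9 were called, Thbs1 and Thbs2 among them, and Spp1 was 1 of the 2 not called. How much Spp1 varied between tumours cannot be seen, since the table gives condition values alone.

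**Figure D2:**
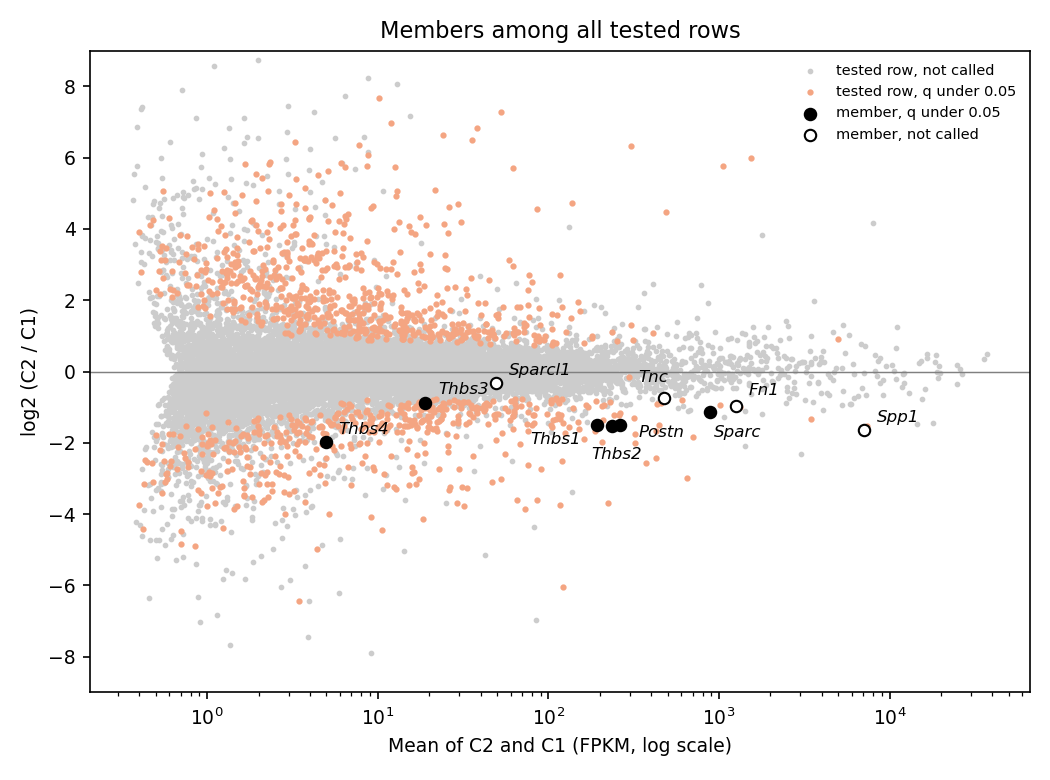
Log2 ratio of C2 over C1 against the mean of C2 and C1 in FPKM (log scale) for tested rows with values above 0 in both, not called in grey and with q under 0.05 in orange. The 6 called genes (filled black) and the 4 others (open) all lie below 0, with Spp1 the furthest to the right at a ratio of -1.65.

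Sparc encodes osteonectin, a collagen-binding protein that fibroblasts, bone and endothelium secrete, and Sparcl1 (hevin) is its closest relative. Sparc fell to 552 FPKM in C2, against 1208 FPKM in C1 (XLOC_003960, chromosome 11, 55207353 to 55233582). Its log2 ratio was -1.13 and its q of 0.0481 in the authors' deposited table lay just inside the threshold, so that it was not called at q under 0.01. Sparcl1 had 43.9 FPKM in C2 and 55.2 FPKM in C1, a log2 ratio of -0.33 (p = 0.20185, q = 0.599, the authors' deposited table), and was not called. Whether the 2 ratios differ was not tested. Over the whole SPARC family, 2 of 7 tested genes were called lower (Sparc and Fstl1), 1 higher (Smoc1) and 4 not at all. Smoc1 rose to 4.59 FPKM in C2, against 0.596 FPKM in C1 (log2 ratio 2.95, or 1.81 with a pseudocount of 1).

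Of 22 other secreted proteins of the same families or of a like role, 14 had a valid test. Of these 2 rose (Comp and Smoc1) and 3 fell (Tnn, Dmp1 and Fstl1). The list's median log2 ratio was -0.51. Tnn, a tenascin of bone and skin, had 2.99 FPKM in C2 and 27.4 FPKM in C1, a log2 ratio of -3.19 (q = 0.00167, the authors' deposited table). Together with Tnc and Tnxb, 3 tenascins were tested and Tnn was the 1 called. Dmp1, a bone and dentine phosphoprotein of the same family as osteopontin, had 9.80 FPKM in C2 and 120 FPKM in C1, a log2 ratio of -3.62 (q = 0.00167, the authors' deposited table). Fstl1, a follistatin-like relative of Sparc, had a log2 ratio of -0.92 (q = 0.0244, the authors' deposited table).

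Spp1 and Sparcl1 lie on the same stretch of chromosome 5 with the rest of the osteopontin family. Dmp1 starts 232 kb before Spp1, Ibsp 136 kb, Mepe 110 kb and Sparcl1 356 kb. Between Sparcl1 and Spp1 the named genes were Dspp, Dmp1, Ibsp and Mepe, of which Dmp1 was the 1 with a valid test. Ibsp was at 0.140 FPKM in C2 and 0.0417 FPKM in C1, and Dspp was listed at 0 in C2 and Mepe at 0 in C1. Beyond the family, Pkd2 starts 23.4 kb after the start of Spp1 and had 14.6 FPKM in C2 and 23.4 FPKM in C1 (log2 ratio -0.68, q = 0.117, the authors' deposited table). Nudt9, on the far side of Sparcl1, had a log2 ratio of 0.11 (q = 0.935, the authors' deposited table).

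**Figure D3:**
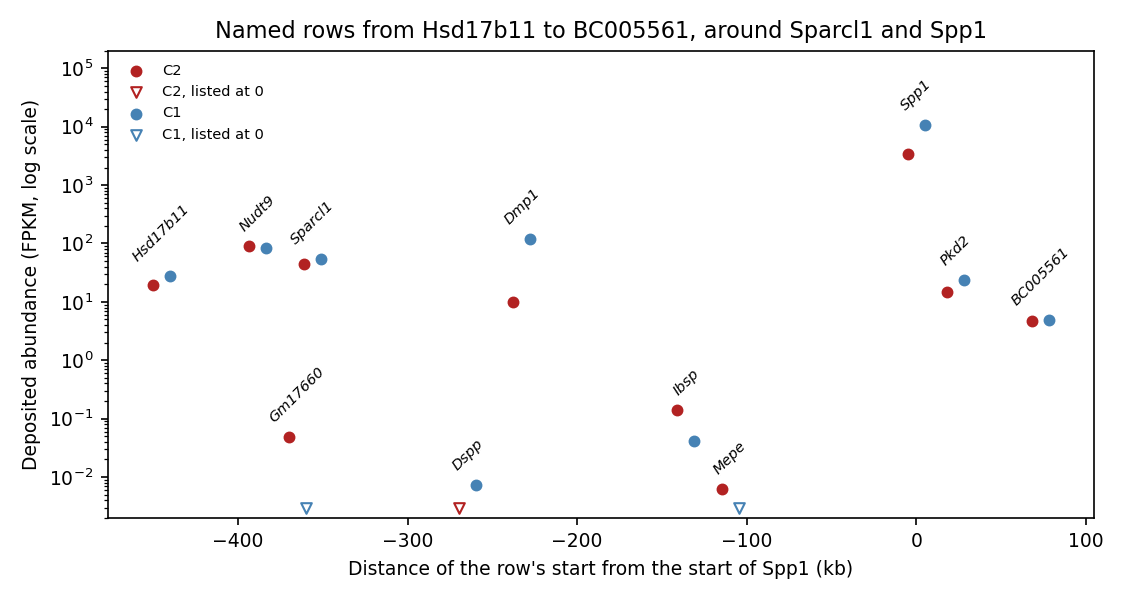
Deposited abundance in FPKM (log scale) of the 11 named rows around Sparcl1 and Spp1 against the distance of each row's start from that of Spp1 in kb, with C2 (red) drawn left of C1 (blue). Open triangles at the bottom edge stand for values listed at 0; Dmp1 shows the widest gap between conditions among the rows with a valid test.

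Receptors of these proteins were mostly not called. Of 19 tested receptor genes 3 fell, 1 rose and 15 were not called, with a median log2 ratio of -0.08. The lower calls lay above the 2.92% called lower over all tested rows, and 4.2% of those rows were called higher. At an unadjusted p under 0.05, 5 receptors had lower and 2 higher values. Itga4, the alpha 4 integrin that binds fibronectin and osteopontin, had 1.03 FPKM in C2 and 17.3 FPKM in C1. Its log2 ratio was -4.07 (q = 0.00167, the authors' deposited table), or -3.17 with a pseudocount of 1. Cd36, a scavenger receptor for thrombospondins, fell by 1.19 on the log2 scale (q = 0.0218, the authors' deposited table), and Itgb5, a beta chain that pairs with alpha v, by 0.76 (q = 0.0437). Sdc1, a heparan sulphate proteoglycan, rose, with 142 FPKM in C2 and 80.8 FPKM in C1 (log2 ratio 0.81, q = 0.0333, the authors' deposited table). The classical fibronectin receptor chains were not called: Itga5 had a log2 ratio of -0.19 (q = 0.845, the authors' deposited table) and Itgb1 -0.54 (q = 0.402). Nor were the osteopontin receptor Cd44 (-0.39, q = 0.555, the authors' deposited table) and the thrombospondin receptor Cd47 (0.20, q = 0.878).

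Inside the cell, none (0) of 15 focal adhesion genes was called, with a median log2 ratio of 0.03 and 1 member (Tns1) under an unadjusted p of 0.05 in the authors' deposited table. With 2.92% of all tested rows called lower and 4.2% higher, 0 of 15 lies near the background share. The most abundant, Zyx (zyxin) and Pxn (paxillin), had log2 ratios of 0.19 and 0.10. Among proteases that cut these proteins, with the cross-linking transglutaminase Tgm2, 4 of 14 tested genes fell and none (0) rose. Over all tested rows 2.92% were called lower and 4.2% higher. At an unadjusted p under 0.05, 6 genes of this list had lower and 2 higher values. The median of the list was -0.53. The gelatinase Mmp2 and the urokinase Plau had log2 ratios of -1.76 and -1.66 (q = 0.00167 each, the authors' deposited table). Ctsk, a collagen-degrading cathepsin, had -1.19 (q = 0.00167, the authors' deposited table), and Mmp14, a membrane-bound protease that activates Mmp2, had -0.84 (q = 0.0459).

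Transforming growth factor beta induces fibronectin, periostin and tenascin-C in fibroblasts, and Thbs1 can activate its latent form. Of 17 genes of that pathway 1 rose, 1 fell and 15 were not called, with a median log2 ratio of 0.13. Such counts lie near the shares over all tested rows, 2.92% called lower and 4.2% called higher. Neither call held at q under 0.01 or with a 2-fold minimum. Tgfbr3, the co-receptor betaglycan, had 25.1 FPKM in C2 and 49.6 FPKM in C1 (log2 ratio -0.98, q = 0.0146, the authors' deposited table). Smad7, the inhibitory Smad, had 10.1 FPKM in C2 and 5.19 FPKM in C1 (log2 ratio 0.96, q = 0.0408, the authors' deposited table). Tgfb1 had a log2 ratio of -0.22 (q = 0.833, the authors' deposited table), and the common target Ctgf had 0.19 (q = 0.844).

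**Figure D4:**
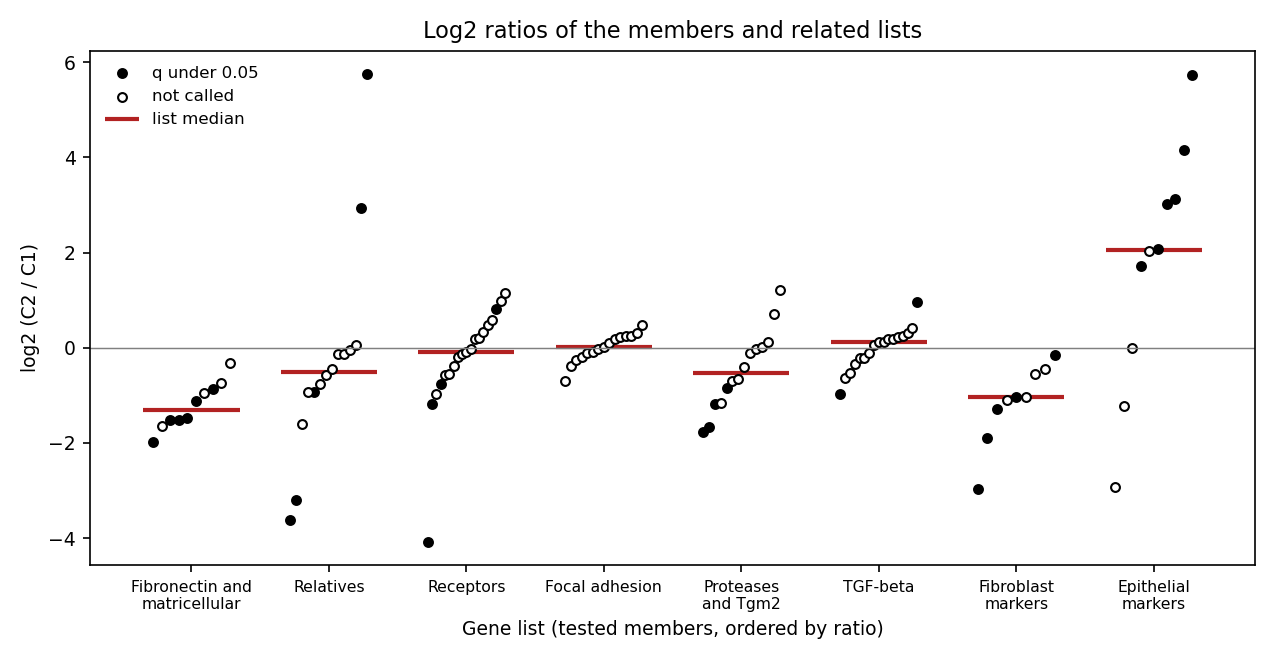
Log2 ratio of C2 over C1 for each tested gene of the 10 members, the related lists and the fibroblast and epithelial markers, with filled points for q under 0.05 and a red bar at each list's median. The members' median is -1.31, that of fibroblast markers -1.04 and that of epithelial markers 2.06.

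Markers of cell types differed between the conditions too, while over all tested rows 2.92% were called lower and 4.2% higher. All 9 fibroblast markers had lower values in C2 and 5 were called lower, with a median log2 ratio of -1.04 and summed levels of 3546 FPKM in C2 and 6889 FPKM in C1. Thy1 and Dcn had log2 ratios of -2.97 and -1.29, while Col1a1 had -0.15 from the deposited values and -1.07 in the fold column of the authors' deposited table. Col1a1 is among the 5 called (q = 0.0138, the authors' deposited table), although its 2 ratios disagree. The sums and median here use its deposited values, and which of its ratios is right was not tested. Of 10 epithelial markers 6 were called higher, with a median of 2.06 and summed levels of 1136 FPKM in C2 and 739 FPKM in C1. Krt8, Epcam and Cldn3, named from those called, had log2 ratios of 1.71, 3.13 and 4.15. The other 4 were not called. The row that joins Krt19 with Krt13 and Krt17 had a log2 ratio of 2.04. The row that joins Krt14 with Krt42 had -1.23, and Krt5 had -2.93. Values of Krt19 and Krt14 alone are thus not given. Krt18, the most abundant, was at 514.3 FPKM in C2 and 515.7 FPKM in C1. The tumours, grown from fibroblasts, thus held both fibroblast and epithelial transcripts in both conditions. Of 9 skeletal muscle markers 8 were called lower, with a median of -3.61 and summed levels of 139 FPKM in C2 and 1536 FPKM in C1. Acta1, Ckm and Mylpf had log2 ratios of -3.68, -3.74 and -3.61.

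Macrophages also make osteopontin. Their 10 markers summed to 602 FPKM in C2 and 603 FPKM in C1, with 1 of 10 called higher (Cd14, log2 ratio 1.13), none (0) lower, also at an unadjusted p under 0.05, and a median of -0.07. The complement genes C1qa and C1qc had log2 ratios of -0.16 and -0.07. Endothelial markers, from cells that also make Sparc and Sparcl1, summed to 98.3 FPKM in C2 and 102 FPKM in C1. Of these 9 markers Cdh5 rose (0.90) and the other 8 had lower values in C2, 3 of them at an unadjusted p under 0.05. Of these Tek was called lower (-1.53), Pecam1 had -0.51 without a call, and the list's median was -0.51. Without Cdh5 the sum was 58.5 FPKM in C2 and 80.7 FPKM in C1. No fibroblast, epithelial, muscle, macrophage or endothelial marker found was listed at 0 in either condition. The part of fibroblast, epithelial, macrophage, endothelial and muscle transcripts in the lower values of the 10 genes was not tested.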

How the data were processed

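Messenger RNA of 5 tumours was sequenced as single reads of 100 bases, on 2 lanes each (10 samples), per the labels' protocols. Sample titles carry differing prefixes before the lane, each found in both tagged and untagged tumours. What the prefixes stand for is not stated in the labels. Tumours had reached 500 mm3 before treatment, which was given 5 times a day. Bowtie and TopHat aligned reads to MGSCv37 and Cufflinks gave abundance, per the series' design text. Versions were TopHat2 2.0.8b, Cufflinks 2.1.1 and CASAVA 1.8.2, per the submitters' processing notes. The table has the column layout of Cuffdiff. No unit stands in its header, and the deposited values were taken as FPKM. The p-values and q-values were deposited by the authors from Cuffdiff. The sources used here do not say which samples it took as replicates. If lanes of a tumour were taken so, the q-values would not measure the spread between tumours. Tagged and untagged tumours come from different lines, so tag and line cannot be told apart. With condition values alone, tumours were not tested again.

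Log2 ratios were computed as C2 over C1 without a pseudocount, because 516 cells of the deposited log2 column were spoiled. For the 10 members the 2 differ by at most 6.58e-06. Sums of named rows leave out loci under 200 bases. In each related list called genes were named, or the 2 most abundant, and up to 3 in each marker list. Other receptors, growth factor genes, Tgfbi, Tnxb, Scx, Tns1, Krt5, Krt14, Krt18, Krt19 and the neighbours were named after their values were seen. Genes closest in level were the 3 called named single-gene rows at the smallest Euclidean distance in log2 values. For genes with several starts, the promoter was the one nearest the deposited locus after alignment at the gene's end. The members and lists were chosen with earlier results of these data known. The adjustment code was tested on simulated data. Software was matplotlib 3.10.9, SciPy 1.17.1, pandas 2.3.3, numpy 2.4.6 and Python 3.11.15.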

Additional observations from a re-analysis of the deposited data

How the results depend on the processing

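No paired analysis was possible because each condition has 1 deposited value and no columns per tumour, so leaving out a replicate was not run either. Re-centring and rescaling moved the log2 ratios of the 10 genes alike, by less than 0.1, and turned no sign. Pseudocounts cannot turn one, and summing rows or taking the deposited fold left the members' ratios as they were. The median was -1.30 with a pseudocount of 1, -1.36 re-centred on the median row and -1.28 rescaled to the sum of named rows. Called members numbered 4 at q under 0.01 (Thbs1, Thbs2, Thbs4 and Postn), 5 with a 2-fold minimum (without Thbs3) and 6 with adjustment over rows of at least 1 FPKM. With Bonferroni adjustment 0 genes were called in any list, by construction, since the smallest p of the table then becomes 0.834. At q under 0.01 the receptors called were 1 lower and 0 higher, and the transforming growth factor beta genes 0 lower and 0 higher. With a 2-fold minimum, 0 receptors were called higher and 0 transforming growth factor beta genes in either direction. Depth is unknown, so its effect on low values such as those of Thbs4 cannot be given.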

Other observations

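Among 735 called single-gene rows with at least 1 FPKM in both conditions, the rows closest to each called member in level were compared over the 2 conditions. Thbs2 lay closest to Penk, the enkephalin precursor (distance 0.0558 in log2 values), then to Cxcl14, a secreted chemokine (0.220), and to Postn (0.240). Thbs1 lay closest to Gpx3, a secreted glutathione peroxidase (0.164), Cxcl14 (0.242) and the collagen Col12a1 (0.329). Postn lay closest to Asah1, the acid ceramidase (0.184), Lxn (0.219) and Thbs2 (0.240). Thbs3 lay closest to Sema5a (0.0322), Fam126a (0.0417) and Pdzrn3 (0.108), and Thbs4 to the muscle kinase Mylk2 (0.0730), Ebf3 (0.0897) and Prss2 (0.108). Sparc had no row as close: Cst3, the protease inhibitor cystatin C, was at 0.345, Apoe at 0.729 and Timp1 at 0.868. With 2 points per gene, likeness of this kind describes level and ratio alone.

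The nearest tested named row on each side of the 10 genes gave 20 neighbours, Dmp1 counting for both Spp1 and Sparcl1. Of them 10 had lower and 10 higher values in C2, with a median log2 ratio of 0.02. The 4 called, all lower, were Dmp1 for both genes, Gpr176, 150 kb from Thbs1 (-1.58), and Pappa, 1080 kb from Tnc (-2.27). Over all tested rows 2.92% were called lower. Thbs3 lies 0.851 kb from Mtx1 (log2 ratio 0.28, q = 0.916 in the authors' deposited table) and 2.21 kb from Muc1 (0.91, q = 0.300).

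In the authors' deposited selection of 28 GO terms, 6 terms held a member, and 4 members were in a term. The selection covers terms among called genes, so a listing there is not separate from the calls above. Thbs1 and Thbs3 were listed under bone development, Thbs4 under nervous system and neuron development, and Sparc under lung, respiratory tube and respiratory system development. Pericyte and smooth muscle markers summed to 175 FPKM in C2 and 161 FPKM in C1, with a median log2 ratio of -0.68. Among 6 tested Rgs5 was called higher (1.25), and the other 5 had lower values, with Mcam called (-0.88). Without Rgs5 the sum was 74.4 FPKM in C2 and 118 FPKM in C1. Tagln had a log2 ratio of -0.68 (q = 0.766, the authors' deposited table).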
